A study of Arabidopsis thaliana with 4 samples.

Results

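The aquaporin family of Arabidopsis thaliana was compared between seedlings mutated in both heat shock factor genes HSFB1 and HSFB2B and wild-type seedlings, after mild heat. Its members were taken by locus, as the probes whose name on the array is 1 of the 35 loci of the PIP, TIP, NIP and SIP subfamilies. All 35 were found, 1 probe each, among 25665 loci on the array, and all 35 matched a locus of the RefSeq table for TAIR10.1. The subfamilies hold 13 PIP, 10 TIP, 9 NIP and 3 SIP genes. The mutant (labelled as the hsfb1 hsfb2b double mutant) and wild-type plants both belong to the Columbia-0 ecotype. Both were 5 d old whole seedlings, grown at 23 °C on sucrose-containing agar medium with several plants of each genotype on the same plate, and both were harvested after the plate had spent 30 min in water at 32 °C. Each of 4 two-colour arrays held RNA of both genotypes from 1 biological replicate, with the mutant in Cy3 on replicates 1 and 3 and in Cy5 on replicates 2 and 4. The labels give neither the kind of mutant allele nor the number of plants behind each RNA sample. Unheated seedlings were not analysed here.

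Aquaporins are membrane channels that let water, and in some members small uncharged solutes, cross membranes along their gradients. The plasma membrane intrinsic proteins (PIP) carry water into and out of cells, and the tonoplast intrinsic proteins (TIP) sit mainly in the vacuolar membrane. The nodulin 26-like proteins (NIP) are better known for metalloids such as boric acid and arsenite, and the small basic proteins (SIP) lie in the endoplasmic reticulum. HSFB1 and HSFB2B are class B heat shock factors, known as repressors of heat-inducible genes.

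On these arrays HSFB1 and HSFB2B themselves were much reduced in the mutant, with log2 ratios of mutant over wild type of -5.79 for HSFB1 and -4.68 for HSFB2B. The share of non-control spots bright enough to count as well above background was 58.7% to 60.9% over the channels, without saturation. Markers of both organs of the seedling were detected, since all 16 root markers and all 10 leaf photosynthesis markers passed the brightness filter. The precision of every ratio is limited by the 4 arrays. Ratios are log2 values of mutant over wild type from a limma fit over 19314 genes that also holds a gene-wise dye effect. A gene was called at a Benjamini-Hochberg adjusted p under 0.05 over all genes tested, and errors on ratios are standard errors of that fit.

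Of the 35 aquaporin genes 28 passed the filter and were tested. In the double mutant 5 of them were higher, 7 were lower and 16 did not pass the threshold. The called share of the tested members was 42.9%, against 29.8% of all genes tested. By direction, 16.6% of all genes were called higher and 13.1% lower. The changes were small, with a median absolute log2 ratio of 0.22 among the 12 called members, and TIP2;3 had the largest. The directions were split by subfamily: all 4 calls among the 7 tested TIP genes were higher, all 4 among the 12 tested PIP genes were lower, and the NIP genes went both ways with 1 higher and 3 lower of 6. None of the 3 SIP genes passed in limma, and none had an unadjusted p under 0.05. As the seedlings were taken whole, more cells of a type and more RNA per cell cannot be told apart in any of these ratios. The ratios of 10 of the 12 called members had 1 sign on every array measured, with both exceptions among the TIP genes. Of the 10, PIP1;4 and PIP2;7 had 3 ratios each. The uncalled TIP3;1 and NIP7;1 also had 1 sign on every array, and the share over all genes was not counted. The calls of 4 members, namely TIP2;3, TIP4;1, PIP2;8 and NIP6;1, held in each of the 13 processing alternatives. Among these, dropping the brightness filter or taking every probe on its own cannot change the ratio of a tested member, which has 1 probe. Only the adjusted p can move there, so these alternatives add little. The number of calls was 4 without replicate 3, against 8 without replicate 1, 12 without replicate 2 and 8 without replicate 4. It was 5 when the dye effect was left out of the fit. With an array left out, 24 to 26 members could be fitted. Calls over all genes moved as well, from 5747 to 2195, 3269, 5814 and 5165 without replicates 3, 1, 2 and 4. Without the dye effect 1826 genes were called. With median centring of the arrays 2 members were higher and 6 lower, and 2547 of all genes were called. With the deposited series values uncentred 8 were higher and 4 lower, and 5980 of all genes were called.

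**Figure D1:**
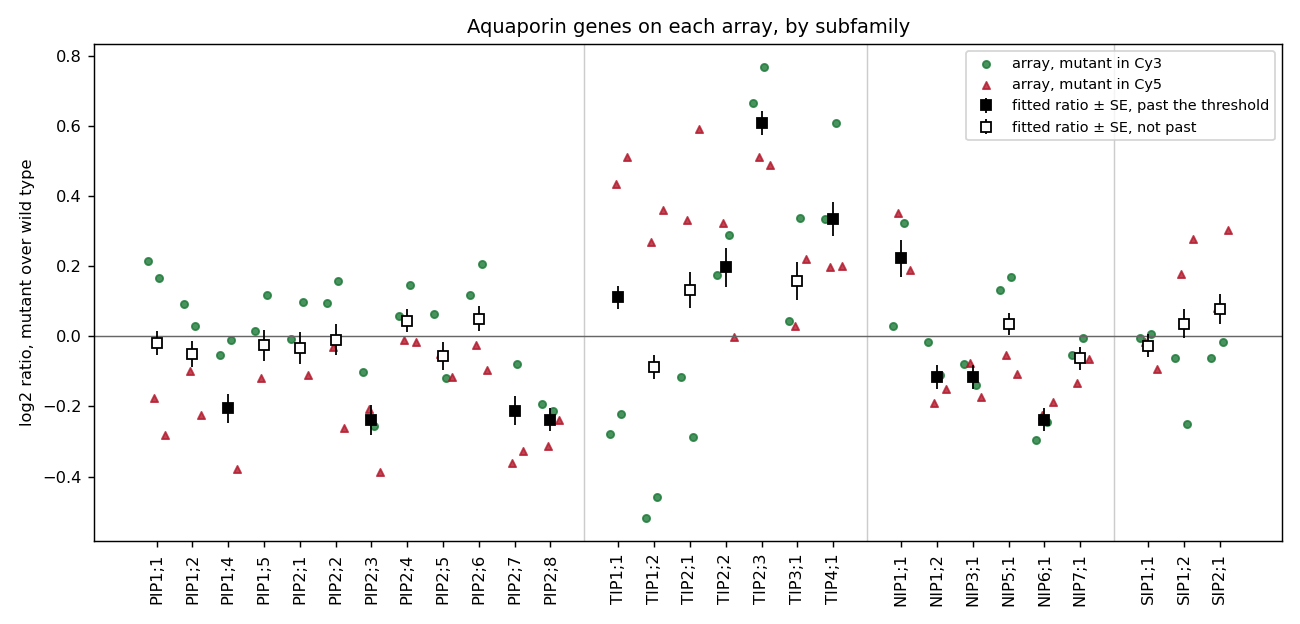
Log2 ratio of mutant over wild type (vertical axis) for each of the 28 tested aquaporin genes, grouped by subfamily, with green circles for arrays with the mutant in Cy3, red triangles for arrays with the mutant in Cy5, and squares for the fitted ratio with its standard error, filled where the gene passed the threshold. TIP2;3 lies highest, at 0.61, and the colours separate widely for the first 3 TIP genes drawn.

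TIP2;3 (AT5G47450), a tonoplast aquaporin that also conducts ammonia, had the largest difference of the family. Its normalized signal was 725, 781, 748 and 622 units in the double mutant on replicates 1 to 4, against 457, 548, 439 and 443 units in the wild type. Every mutant value lay above every wild-type value. The log2 ratio was 0.61 ± 0.03 (SE, n = 4 arrays), a 1.53-fold higher level in the mutant (limma adjusted p = 7.1e-05), with 0.67, 0.51, 0.77 and 0.49 on the single arrays. Its ratio reached 0.96 in the deposited series values uncentred.

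TIP4;1 (AT2G25810), a tonoplast member known from roots, was 1.26-fold higher in the mutant. Its signal was 747, 784, 842 and 567 units in the double mutant, against 593, 683, 552 and 493 units in the wild type. The ranges of the genotypes overlapped, but the mutant was above the wild type on every array, by log2 ratios of 0.33, 0.20, 0.61 and 0.20. The fitted ratio was 0.34 ± 0.05 (limma adjusted p = 0.0024), and it was 0.55 in the series values uncentred.

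TIP2;2 (AT4G17340), a vacuolar channel of roots, was 1.15-fold higher. Its signal was 6285, 6312, 5888 and 4965 units in the double mutant, against 5571, 5045, 4815 and 4967 units in the wild type. The mutant was higher on replicates 1 to 3, and on replicate 4 the genotypes had nearly the same signal. The fitted ratio was 0.20 ± 0.05 (limma adjusted p = 0.032), and the call was lost in 8 of the 13 alternatives, among them those without replicate 1 (0.23), replicate 2 (0.12) or replicate 3 (0.17) and that with median centring (0.11).

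TIP1;1 (AT2G36830), a widely expressed vacuolar water channel under the RefSeq symbol GAMMA-TIP, was called higher by the smallest margin of the family. Its signal was 101181, 129654, 108252 and 139391 units in the double mutant, against 122854, 95818, 126244 and 97811 units in the wild type. The mutant was lower on both arrays where it was in Cy3 (-0.28 and -0.22) and higher on both where it was in Cy5 (0.44 and 0.51). The fitted ratio of 0.11 ± 0.03 (limma adjusted p = 0.042) lay between these and lost its call in 8 alternatives, those without replicate 1 (0.13), replicate 3 (0.10) and replicate 4 (0.09) included. With median centring of the arrays it turned to -0.05, and it was 0.21 in the series values uncentred.

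The other 3 tested TIP genes did not pass. TIP1;2 (AT3G26520, RefSeq synonym GAMMA-TIP2) and TIP2;1 (AT3G16240, RefSeq symbol DELTA-TIP), vacuolar channels of vegetative tissue, had the widest separation of the dye orientations among members without a call. GAMMA-TIP2 averaged -0.49 with the mutant in Cy3 and 0.31 with it in Cy5, and its fitted ratio was -0.09 ± 0.03 (limma adjusted p = 0.097, unadjusted p = 0.038). With median centring it was called lower, at -0.25. DELTA-TIP averaged -0.20 with the mutant in Cy3 and 0.46 with it in Cy5 and was fitted at 0.13 ± 0.05 (limma adjusted p = 0.091). Calls in the higher direction came without replicate 2 (0.20), from the uncentred series values (0.27) and from the processed signals (0.19). TIP3;1 (AT1G73190), a channel of the protein storage vacuole of seeds, had a signal of 310, 298, 312 and 358 units in the double mutant, against 301, 292, 247 and 307 units in the wild type. The mutant was above the wild type on every array, but the ratio of 0.16 ± 0.05 did not pass (limma adjusted p = 0.066), and it passed without replicate 1 (0.23) or replicate 2 (0.21). It was 0.09 without replicate 3, 0.11 without replicate 4 and 0.42 in the series values uncentred, with no call in any of the 3. Of the 11 seed markers 5 were tested, and 2 of these were higher, EM6 with 0.69 and OLEO2 with 0.37. This called share of 40% stood against 29.8% of all genes tested. The part of seed RNA in the ratio of this gene was not tested.

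**Figure D2:**
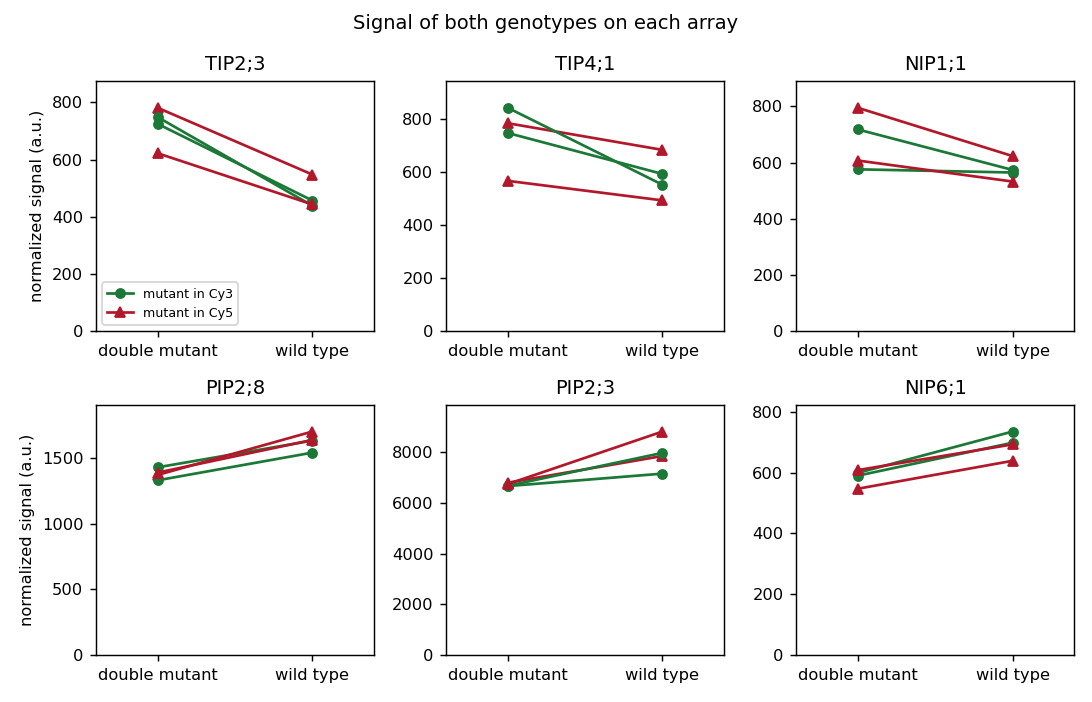
Normalized signal in arbitrary units (vertical axis, from 0) in the double mutant and the wild type for 6 aquaporin genes, with a line joining the genotypes on each of the 4 arrays, green circles for the mutant in Cy3 and red triangles for the mutant in Cy5. Every line runs down towards the wild type in the 3 upper panels and up in the 3 lower ones.

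Among the PIP genes 4 were lower in the double mutant and none was called higher, nor was any of the others above 0 at an unadjusted p under 0.05 in limma. PIP2;8 (AT2G16850), a plasma membrane water channel, had a signal of 1432, 1374, 1333 and 1392 units in the double mutant, against 1636, 1705, 1544 and 1641 units in the wild type. The genotypes did not overlap. The log2 ratio of -0.24 ± 0.03 (n = 4 arrays, limma adjusted p = 0.0021) is a 1.18-fold lower level in the mutant. On the arrays taken singly it ran from -0.31 to -0.19, so both dye orientations gave close values. How far its probe also binds the transcript of its close relative AT4G35100 was not tested.

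PIP2;3 (AT2G37180), under the RefSeq symbol RD28 for its response to desiccation, was lower by as much. Its signal was 6666, 6800, 6677 and 6746 units in the double mutant, against 7157, 7853, 7977 and 8819 units in the wild type. The mutant was below the wild type on every array and the ranges did not overlap. The ratio was -0.24 ± 0.04 (limma adjusted p = 0.0070), and the call was lost without replicate 3 (-0.20) and in the series values uncentred (-0.17). PIP2B (PIP2;2, AT2G37170), the neighbouring gene in the RefSeq order with no gene between them, had a ratio of -0.0098 ± 0.04 and did not pass (limma adjusted p = 0.89). These paralogues have very similar coding sequences, and how far each probe also binds the transcript of the other was not tested.

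PIP2;7 (AT4G35100) and PIP1;4 (AT4G00430) were each fitted on 3 arrays, because a spot on the remaining array carried an outlier mark. A single array thus stood for a whole dye orientation, replicate 3 (mutant in Cy3) for AT4G35100 and replicate 4 (mutant in Cy5) for AT4G00430. With a dye effect in the fit, the spread in that orientation could not be measured, and the errors and adjusted p below do not include it. The dye effect passed for AT4G00430 (limma adjusted p = 0.037) but not for AT4G35100 (limma adjusted p = 0.071). The PIP2 gene, AT4G35100, had 66069, 67528 and 68009 units in the double mutant on replicates 2 to 4, against 84938, 71314 and 85396 units in the wild type. Its ratio was -0.21 ± 0.04 (limma adjusted p = 0.012), with -0.36, -0.08 and -0.33 on the single arrays. The PIP1 gene, AT4G00430, had 27428, 28614 and 28582 units in the double mutant on replicates 1, 3 and 4, against 28434, 28815 and 37177 units in the wild type. The genotypes were close on the arrays with the mutant in Cy3 and apart on replicate 4, at -0.38, and the fitted ratio was -0.21 ± 0.04 (limma adjusted p = 0.014). Both calls were lost without the dye effect (-0.26 for AT4G35100 and -0.15 for AT4G00430), in the Feature Extraction processed signals and in the series values (-0.12 and -0.05 uncentred). With median centring the ratios were larger, at -0.45 for AT4G35100 and -0.34 for AT4G00430.

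The other 8 tested PIP genes had fitted ratios between -0.06 and 0.05. They include PIP1A (PIP1;1, AT3G61430), PIP1B (PIP1;2, AT2G45960) and PIP2A (PIP2;1, AT3G53420), water channels with known parts in root or leaf water transport, at -0.02, -0.05 and -0.03, with 3 arrays measured for PIP2A. PIP1A had the widest separation of dye orientations among the uncalled PIP genes, with 0.19 for the mutant in Cy3 and -0.23 for the mutant in Cy5. PIP1;5 (3 arrays), PIP2;4, PIP2;5 and PIP2E stood at -0.03, 0.05, -0.06 and 0.05. In the series values uncentred PIP2E was called higher, at 0.18. PIP1C (PIP1;3, AT1G01620) was not tested, because outlier marks left 2 ratios, 0.02 and 0.04. With marked spots kept, its ratio was 0.05 ± 0.03 (n = 4 arrays) and did not pass (limma adjusted p = 0.27).

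The NIP subfamily held calls in both directions. NIP6;1 (AT1G80760), a boric acid channel that helps deliver boron to young shoot tissues, had 599, 547, 590 and 609 units in the double mutant, against 735, 639, 699 and 693 units in the wild type. The genotypes did not overlap. The ratio was -0.24 ± 0.03, a 1.18-fold lower level (limma adjusted p = 0.0020), and -0.29 to -0.19 on the arrays taken singly.

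NIP1;1 (AT4G19030, RefSeq symbol NLM1), a root channel that also carries arsenite, was the NIP gene that rose. It had 576, 795, 718 and 607 units in the double mutant, against 565, 623, 574 and 533 units in the wild type. The mutant was higher on every array, barely so on replicate 1 (0.03) and by 0.35, 0.32 and 0.19 on replicates 2 to 4. The fitted ratio was 0.22 ± 0.05, a 1.17-fold higher level (limma adjusted p = 0.019). The call was lost in 6 alternatives, among them median centring (0.20), the fit without replicate 3 (0.15) and the series values uncentred (0.36).

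NIP3;1 (AT1G31885) and NIP1;2 (AT4G18910) were lower by the smallest amounts called. AT1G31885, which affects arsenic movement in the plant, had 225, 216, 227 and 209 units in the double mutant, against 237, 227, 250 and 236 units in the wild type. Its probe was among the dimmest of the tested members, and the background correction draws ratios of dim genes towards 0. The ranges did not overlap, nor did those of the uncalled NIP7;1. The ratio was -0.12 ± 0.03 (limma adjusted p = 0.040). It moved to -0.45 in the series values centred and to -0.44 in the Feature Extraction processed signals, and its call was lost in 5 alternatives, those without replicate 1 (-0.13), replicate 3 (-0.10) or replicate 4 (-0.09) included. AT4G18910 had 607, 562, 574 and 592 units in the double mutant, against 614, 641, 620 and 657 units in the wild type. It too was lower on every array, with a ratio of -0.12 ± 0.03 (limma adjusted p = 0.038) that lost its call in 8 alternatives, those without replicate 1 (-0.14), replicate 2 (-0.11) or replicate 3 (-0.09) included, and stood at -0.21 in the series values centred and -0.20 in the processed signals.

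NIP5;1 (AT4G10380), the boric acid uptake channel of roots, had 1184, 1065, 1139 and 1008 units in the double mutant, against 1080, 1106, 1014 and 1086 units in the wild type. Its ratio was above 0 on both arrays with the mutant in Cy3 and below 0 on both with the mutant in Cy5. The fit gave 0.04 ± 0.03 (limma adjusted p = 0.45), and the gene was called higher in the series values uncentred, at 0.14. NIP7;1, known from anthers, stood at -0.06 ± 0.03 and did not pass, but was called lower, at -0.38 from the uncentred series values and -0.46 from the Feature Extraction processed signals. The SIP genes SIP1A, SIP1;2 and SIP2;1 had fitted ratios of -0.03, 0.04 and 0.08, none past the threshold. The last of them was called higher without replicate 2 (0.13) and in the series values uncentred (0.14).

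The probes of 6 genes, TIP1;3, BETA-TIP (TIP3;2), TIP5;1, NIP2;1, NIP4;1 and NIP4;2, did not pass the brightness filter. All but BETA-TIP, a seed gene, and NIP2;1, a root gene, are best known from pollen. The probe of NIP4;2 exceeded background clearly in the mutant on 1 array, and the other 5 probes did so on no array in either genotype. Fitted without the brightness filter, their log2 ratios lay between -0.07 and 0.07, and none of the 6 passed in limma or had an unadjusted p under 0.05. The background correction draws ratios of dim genes towards 0, so these values cannot show whether the 6 genes differed.

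By subfamily, the median fitted log2 ratio was 0.16 for TIP, -0.04 for PIP, -0.09 for NIP and 0.04 for SIP, against 0.00065 for all genes tested. The TIP median was above 0 on every array, at 0.05, 0.32, 0.29 and 0.36 on replicates 1 to 4. The NIP median was below 0 on every array, between -0.13 and -0.03. The PIP median followed the dye, at 0.06 on both arrays with the mutant in Cy3 and at -0.11 and -0.24 on those with it in Cy5. The TIP median minus the PIP median was accordingly -0.01 and 0.23 on replicates 1 and 3 and 0.43 and 0.60 on replicates 2 and 4. On replicate 1 the subfamilies were thus level, and the mean of this difference was 0.31 ± 0.26 (SD, n = 4 arrays). These medians cover the members that passed the filter, and the sharing of a direction within a subfamily was not tested.

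**Figure D3:**
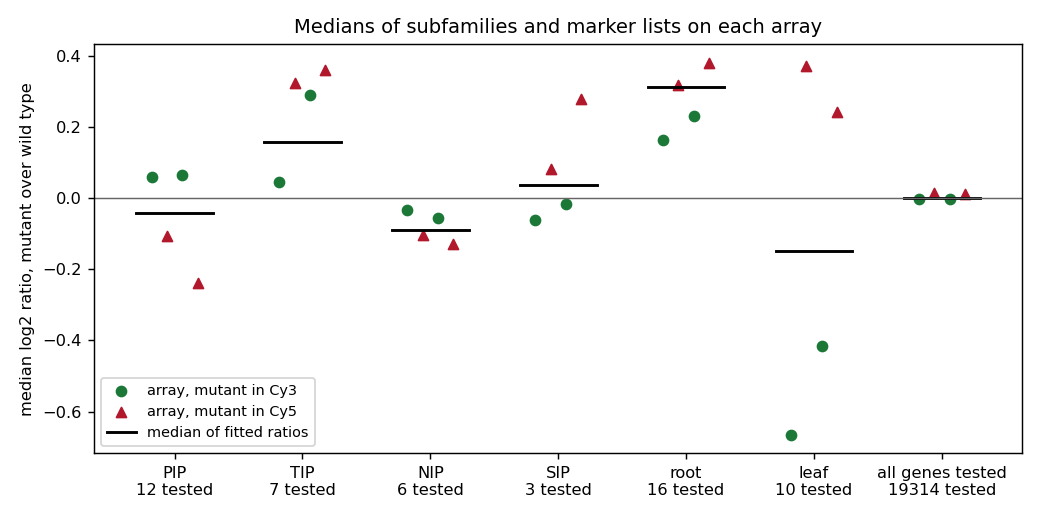
Median log2 ratio of mutant over wild type (vertical axis) on each array for the 4 aquaporin subfamilies, the root and leaf marker lists and all genes tested, with green circles for the mutant in Cy3, red triangles for the mutant in Cy5 and a bar for the median of fitted ratios. The TIP medians are above 0 and the NIP medians below 0 on all 4 arrays, while the medians of the leaf markers change sign with the dye.

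The dye moved more with some members than with others. A gene-wise dye effect passed the same threshold for 7 of the 28 tested members (25%), against 18.1% of all genes tested, and for 3 of the 7 TIP genes. GAMMA-TIP, GAMMA-TIP2 and DELTA-TIP stood lower with the mutant in Cy3 and higher with the mutant in Cy5. So did the medians of the leaf photosynthesis markers, at -0.67 and -0.41 with the mutant in Cy3 and 0.37 and 0.24 with it in Cy5. Not every leaf marker did so. LHCB2.1 stood at 0.56 and 0.64 with the mutant in Cy3 and 0.20 and -0.27 with it in Cy5, and RBCS1A was below 0 on every array measured. For TIP2;3, TIP4;1 and TIP2;2 the dye effect did not pass (limma adjusted p = 0.065, 0.085 and 0.67). The part of the dye in the subfamily medians was not tested beyond its term in the fit.

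Root and leaf markers were measured on the same arrays, where 29.8% of all genes tested were called. Of the 16 root markers 10 were higher and 2 lower, with a median log2 ratio of 0.31 and array medians between 0.16 and 0.38. The median does not stand for every root marker. The higher ones were CASP1 to CASP5, EXPA7, EXPA18, COBL9, RHD6 and WER. SHR, a regulator of root patterning, had the lowest ratio, -0.16, and WOX5 was lower at -0.13. SCR, PLT1, PLT2 and PHO1 did not pass, at -0.06, -0.02, -0.0016 and -0.05. Of the 10 leaf photosynthesis markers (70% called) 1 was higher, LHCB2.1 (0.28), and 6 were lower, with LHCB1.1 the lowest (-0.27), and the median was -0.15. The leaf array medians changed sign with the dye, from -0.67 and -0.41 with the mutant in Cy3 to 0.37 and 0.24 with it in Cy5. The dye effect passed for 9 of the 10. Each of the 6 lower ones was above 0 on both arrays with the mutant in Cy5. The part of root and leaf content in the ratios of the aquaporin genes was not tested.

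Genes that act beside aquaporins were measured as well. Of 13 genes for the trafficking, turnover and regulation of aquaporins and for boron transport, 4 were higher and 2 lower, with a median log2 ratio of 0.04. The called share was 46.2%, against 29.8% of all genes tested, of which 16.6% were higher and 13.1% lower. TSPO, a stress-induced membrane protein that leads PIP2;7 to degradation, was the highest at 0.75 ± 0.13 (limma adjusted p = 0.0059), with 0.06 on replicate 1 and 0.78, 0.94 and 1.22 on replicates 2 to 4. RMA3, of the RING-type ubiquitin ligase family whose member RMA1 acts on PIP2A, was the lowest at -0.14 ± 0.03 (limma adjusted p = 0.014), with ratios below 0 with the mutant in Cy3 and above 0 with it in Cy5. Of 9 vacuolar, vacuolar-type and plasma membrane proton pump genes 3 were called higher, which at 33.3% is close to the 29.8% called over all genes, and the median was 0.11. The plasma membrane pump gene AHA2 was the highest at 0.25 ± 0.03 (limma adjusted p = 0.0019), and VHA-a1, a subunit of the vacuolar-type pump, was the lowest of those called at 0.12 ± 0.03 (limma adjusted p = 0.028). VHA-a2 and VHA-a3 did not pass, at -0.0069 and 0.02.

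**Figure D4:**
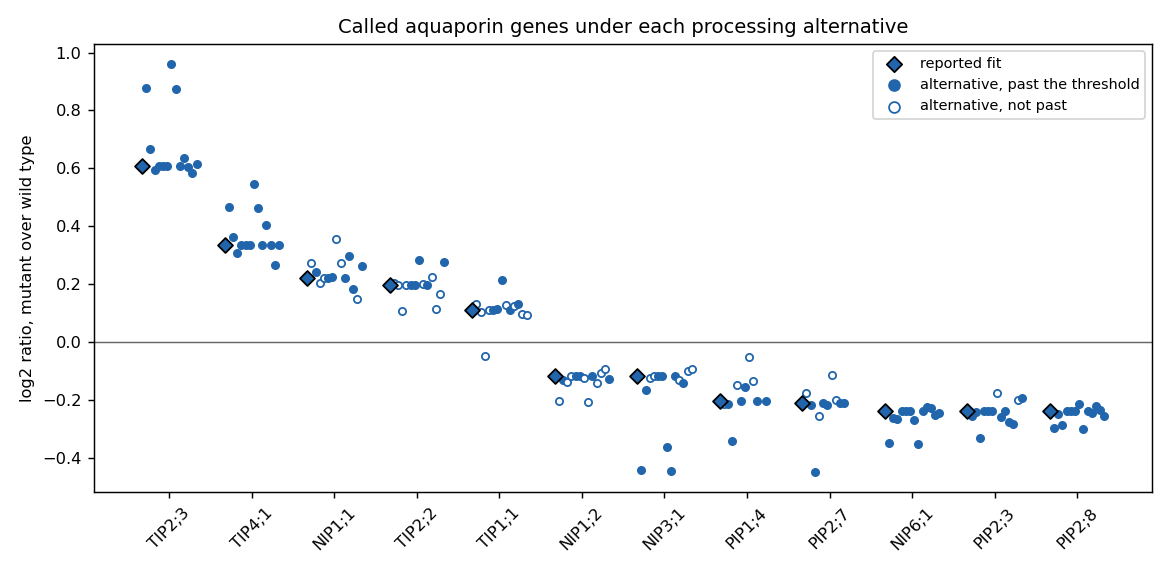
Log2 ratio of mutant over wild type (vertical axis) of the 12 called aquaporin genes in the reported fit (diamonds) and under each processing alternative (circles, filled where the gene passed the threshold). TIP2;3, TIP4;1, PIP2;8 and NIP6;1 are filled throughout, and GAMMA-TIP is the gene with a value on the other side of 0, -0.05 with median centring.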

How the data were processed

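Total RNA of both genotypes was hybridised to 4 two-colour Agilent arrays that share 1 slide and 1 scan, which leaves no batch to test. The deposited scanner files hold spot and background intensity values (median pixels, arbitrary units) and processed intensity values, all made with version 9.1.3.1 of Agilent Feature Extraction, per the file headers. Their log10 ratio of red over green, also deposited, was calculated by the same software. The deposited series values are natural log ratios, found by setting them against that ratio (r of 0.987 to 0.999 in size); their signs gave mutant over wild type. How they were centred is not stated in the sources used here, and their medians were 0.0458, 0.0813, 0.107 and -0.0011 on replicates 1 to 4.

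Median signals were background-corrected with normexp (offset 50, which draws ratios of dim genes towards 0) and normalized by loess within arrays, giving no weight to control spots or to outlier-marked ones, which were left out. Probes had to be well above background in all 4 channels of 1 genotype with at least 3 ratios, and the brightest probe per gene was kept. The log2 ratios were fitted in limma 3.58.1 (R 4.3.3) with genotype and a gene-wise dye effect, two-sided, checked first on simulated data. The array pairs the genotypes. Normalized signals per genotype add Aquantile normalization between arrays and are not compared between probes. The alternatives were processed signals, an offset of 0, median centring, no dye effect, no brightness filter, marked spots kept, the series values uncentred and centred, every probe on its own, and each array left out, where the 3 others must all have a ratio.

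The 10 called members with the largest ratios and the 3 uncalled members with the widest dye separation were named by rule, as were the highest and lowest called genes of the other lists, of which 1 is not reported here. Members and lists were chosen with earlier results of these data known.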

Additional observations from a re-analysis of the deposited data

How the results depend on the processing

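The number of called members was 12, with 5 higher and 7 lower. Over the fits that each left out 1 array it ran from 4 to 12, with 2 to 7 higher and 2 to 5 lower, and 24 to 26 members could be fitted. Without the dye effect 5 were called, 2 higher and 3 lower, and with the series values centred 7 were called, 2 of them higher. Counts of higher members were 3 with the processed signals, 3 with an offset of 0, 2 with median centring and 8 with the series values uncentred, where 4 were lower. Over all genes 5747 were called, against 2547 with median centring, 1826 without the dye effect, 3616 with the series values centred and 2195 to 5814 with 1 array left out. The TIP median stayed above 0 in all 13 alternatives (0.11 to 0.28) and the NIP median below 0, with -0.28 for the processed signals, -0.20 for the series values uncentred and -0.28 when these were centred. The PIP median was between -0.16 and -0.02 except in the series values uncentred (0.07), and the SIP median between 0.01 and 0.12 except without replicate 1 (-0.01). Of the called members TIP1;1 changed sign, to -0.047 with median centring. The other changes of sign were of members without a call. PIP1;1 stood at 0.014 with the processed signals, 0.095 with the series values uncentred, 0.011 with them centred, and -0.046 to 0.0077 with 1 array left out. PIP2;1 stood at 0.0069 with the processed signals, 0.014 with marked spots kept, 0.17 with the series values uncentred and 0.082 with them centred. With median centring PIP2;4 stood at -0.0074, PIP2;6 at -0.079, TIP2;1 at -0.038 and NIP5;1 at -0.0063. PIP1;5 stood at 0.0057 without the dye effect and 0.072 with the series values uncentred, where PIP1;2 stood at 0.056, PIP2;2 at 0.066, TIP1;2 at 0.044 and SIP1;1 at 0.049. With 1 array left out PIP2;2 ran from -0.067 to 0.048, at 0.0057 without replicate 1, and SIP1;2 from -0.011 (without replicate 1) to 0.083. The cause of these changes was not tested. The fit is paired already, since every ratio sets the mutant against the wild type of the same array, and no further replicate block could be added.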

Other observations

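Differences between close relatives on the same array were read as values, with the pairs chosen after their values were seen and so without a test. The log2 ratio of PIP2;3 minus that of its neighbour PIP2;2 was -0.20, -0.18, -0.41 and -0.13 on replicates 1 to 4, below 0 under both dye orientations. NIP1;1 minus NIP1;2 was 0.04, 0.54, 0.43 and 0.34, so these relatives were level on replicate 1 and apart on the others. TIP2;3 minus TIP2;2 was 0.49, 0.19, 0.48 and 0.49. PIP2;8 minus PIP2;7 was 0.05, -0.13 and 0.09 on replicates 2 to 4, with a mean of 0.0026, so this pair did not differ in a steady direction. TIP1;1 minus TIP1;2, a pair whose single ratios change sign with the dye, was 0.24, 0.17, 0.24 and 0.15 (SD 0.05, n = 4 arrays). The ratios of TIP1;1 itself were -0.28, 0.44, -0.22 and 0.51 on the same arrays.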
